A study of Mus musculus with 6 samples.

Results

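The endoplasmic reticulum (ER) protein folding and unfolded protein response (UPR) genes are a group of 34 named genes that were read in resting splenic natural killer (NK) cells with and without the transcription factor Runx3. Members were found as every probe set, a group of short oligonucleotides that reads 1 transcript, whose single gene symbol in the platform annotation equals one of the 34 names. All 34 genes were found among the 18193 genes named on the array, on 84 of 34945 probe sets with 1 symbol, and the gene called Ero1l in the list is called Ero1a on the platform. The cells came from spleens of 6-week-old ICR mice, 3 of them Runx3-/- and 3 wild type (WT), with no stimulus given to either group. NK cells were enriched by removing other cells and then sorted for DX5, a surface integrin of NK cells that basophils also carry, and 1 Affymetrix mouse array was run per sample. The design text has each sample from an individual animal, whereas the sex label of all 6 samples names both sexes. Runx3 was missing from the whole animal and not from NK cells alone, so a difference between the groups need not arise in the NK cell itself.

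Proteins that enter the secretory pathway are threaded into the ER through the Sec61 channel, folded there by chaperones and disulfide isomerases, and sent back to the cytosol for destruction when folding fails. The sensors in the ER membrane, IRE1, PERK and ATF6, respond to unfolded protein and, through the transcription factors XBP1, ATF4 and ATF6 itself, raise the chaperones, the degradation machinery and feedback regulators as a block. The cytosol has its own set of related chaperones, many of them under heat shock factor 1, and the compartments can respond apart from each other. NK cells load granules with perforin and granzymes, which are made in the ER.

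Runx3 itself had log2 signals of 7.76, 8.51 and 8.68 on the Runx3-/- arrays and 10.11, 11.56 and 10.73 on the WT arrays, 5.59-fold lower without overlap (limma adjusted p = 0.0567), and no source used here says whether its probe set lies in the deleted part. The 10 NK markers that were tested had a mean log2 signal between 13.06 and 13.41 on every array, with Ncr1, the NK receptor NKp46, between 13.34 and 14.20. The median change over the 9545 tested genes was -0.13 on the log2 scale, so that a gene at that value moved with the array as a whole.

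Nearly all of the ER genes were expressed and few differed between the genotypes. Of the 34, 33 had a log2 signal of at least 5, the level taken here as background, on all 6 arrays and were tested. Trib3, a pseudokinase that is switched on by ATF4 in stressed cells, lay between 2.70 and 3.30 on both of its probe sets on all 6 arrays. By the study's criterion, which takes a gene that differs by 1.5-fold or more at an unadjusted p below 0.05, 1 of 33 was higher in Runx3-/- (3.03%), where 4.89% of all tested genes were higher, and 0 of 33 were lower, where 8.86% of all tested genes were lower. Over all genes these shares are 467 higher and 846 lower, and 627 and 498 with each array centred on its median, under which the members' median was 0.01. None passed a Benjamini-Hochberg (BH) adjusted p under 0.05 in limma, which 0.608% of all genes did, and 2 of the 33, Ero1a and Derl2, had an unadjusted p under 0.05, beside 16.0% of all tested genes. In a bulk sample of sorted cells, here and in all that follows, fewer cells of a type and less RNA per cell cannot be told apart. The median change of the 33 was -0.11, beside -0.13 for all genes, with a range from -0.55 to 0.70.

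The groups did not overlap for 6 of the 33 members (18.2%), beside 22.8% of all tested genes. These were Ero1a and Hyou1, higher in Runx3-/-, and Uggt1, Creld2, Ern1 and Derl2, lower. For 7 of the 33 (21.2%) the 95% interval of the change lay wholly within 1.5-fold of 0 in both directions, beside 8.45% of all tested genes. These were Calr, Canx, P4hb, Eif2ak3, Xbp1, Syvn1 and Sec61b. For the other members the interval from 3 arrays per group reached beyond 1.5-fold on at least one side.

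**Figure D1:**
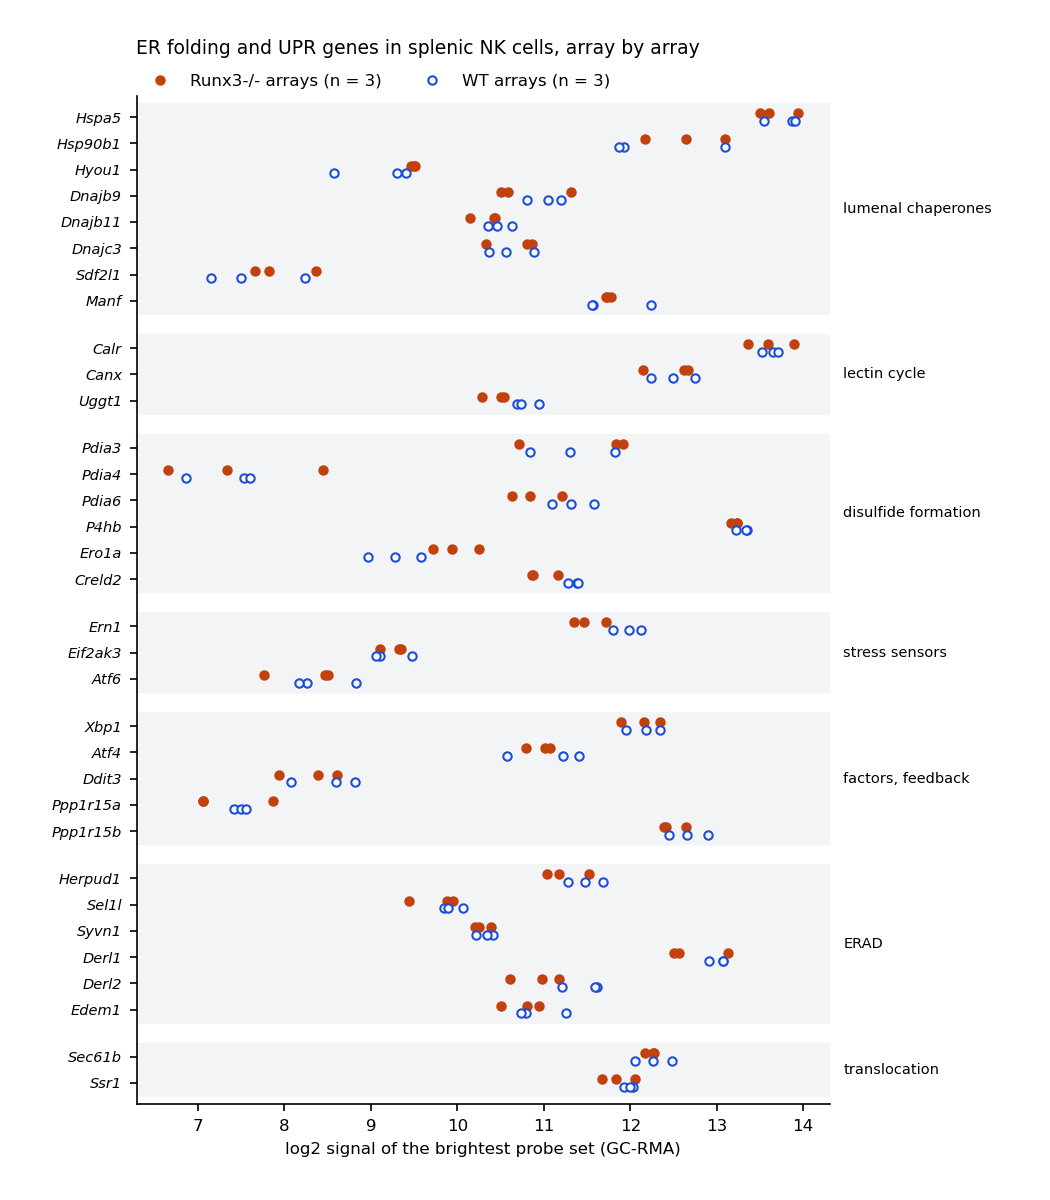
Log2 signal (x axis) of the brightest probe set of each of the 33 tested ER genes (y axis, grouped by role) on the 3 Runx3-/- arrays (filled) and the 3 WT arrays (open). The 2 groups are intermixed for 27 genes and apart for 6, among them Ero1a and Derl2.

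Sequence near the start of these genes is shown to set apart the members whose window carries the recognised UPR element. RefSeq promoter windows (assembly GRCm38.p6, 250 bases before to 50 bases after the start) were held for 29 of the 34 members, and none for Atf6, Derl1, Hyou1, Manf and Ppp1r15b. The ER stress element, read by ATF6 and XBP1, was searched on both strands as CCAAT and CCACG set 9 bases apart. It was in 8 of the 29 member windows, those of Calr, Canx, Creld2, Dnajc3, Hsp90b1, Hspa5, Pdia6 and Syvn1, in 0 of 40 cytosolic chaperone windows, and in 0.119% of 32851 windows overall. The 4 brightest of these members are printed 5' to 3' on the strand of the gene, with the element in capitals. In Calr and in the second copy of Hsp90b1 it stands in the reverse orientation.
Hspa5, chr2:34772005-34772063, plus strand: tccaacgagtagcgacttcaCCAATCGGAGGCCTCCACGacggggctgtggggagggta
Calr, chr8:84847055-84847113, minus strand: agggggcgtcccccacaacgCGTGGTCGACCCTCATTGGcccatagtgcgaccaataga
Canx, chr11:50325780-50325838, minus strand: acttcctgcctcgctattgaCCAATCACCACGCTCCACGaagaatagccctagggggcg
Hsp90b1, chr10:86705513-86705676, minus strand: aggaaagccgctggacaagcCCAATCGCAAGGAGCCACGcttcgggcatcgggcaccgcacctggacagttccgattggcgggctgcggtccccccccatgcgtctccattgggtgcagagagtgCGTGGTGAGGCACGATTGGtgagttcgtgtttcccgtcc

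The element of Hspa5 lay between 65 and 47 bases before the start, that of Calr between 162 and 144 bases and that of Canx between 145 and 127 bases. The median change of the members with the element was -0.03 and that of the members without it -0.14, given as a description with no test. A second form of the element (ATTGG and CCACG, 1 base apart) was in the windows of Dnajb11 and Herpud1 and in 0.0365% of all windows. The letters TGACGTG, bound by XBP1 and ATF6, were in the Hspa5 window and in 2.01% of all, and TTGCATCA, an ATF4 site, in that of Herpud1 and in 0.895%. Of the forms of the RUNX site, TGCGGT was in 6 of the 29 member windows (Canx, Derl2, Herpud1, Hsp90b1, P4hb and Ppp1r15a) (20.7%), in 6.45% of all windows, in those of 11.4% of the tested genes that had one and in 5 of 40 cytosolic chaperone windows (12.5%). TGTGGT was in 0 of the 29, in 16.8% of all windows and in those of 15.1% of the tested genes. The study's RUNX motif also takes in TGCGGC and TGTGGC, which were not searched here. A match describes letters in a window and does not show that a factor binds there.

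Among the lumenal chaperones and their cochaperones, 8 genes had a median change of 0.01, and none met the thresholds. Hspa5 encodes BiP, the Hsp70 of the ER, which binds unfolded chains and holds the 3 sensors inactive. It was among the brightest members, with log2 signals of 13.50, 13.94 and 13.60 on the Runx3-/- arrays and 13.87, 13.91 and 13.55 on the WT arrays. The groups overlapped, and the change was -0.10 (95% interval -0.60 to 0.41, limma adjusted p = 0.849). Its 3 probe sets gave changes from -0.11 to 0.17.

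Hsp90b1, the Hsp90 of the ER known as GRP94, had 12.65, 13.09 and 12.17 in Runx3-/- against 13.10, 11.93 and 11.87 in WT. WT replicate 1 was as bright as the brightest Runx3-/- array, and the change of 0.34 had a wide interval (-0.57 to 1.25). Hyou1, an Hsp110 relative that exchanges nucleotide on BiP, had 9.51, 9.46 and 9.50 in Runx3-/- and 8.57, 9.41 and 9.31 in WT. Every Runx3-/- array was higher, by little over 2 of the WT arrays, and the change was 0.40 (interval -0.21 to 1.01, adjusted p = 0.480 by limma).

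Dnajb9, Dnajb11 and Dnajc3 encode J-proteins that feed substrates to BiP, and their changes were -0.21, -0.14 and 0.06. Sdf2l1, a partner of the ER J-proteins, had a change of 0.32 from a low level, 7.83, 8.37 and 7.66 against 7.50, 7.15 and 8.24. Manf, a small lumenal protein that can be secreted under ER stress, had a change of -0.04. All 5 overlapped between the groups.

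The lectin chaperone cycle holds glycoproteins until they are folded. Calr (calreticulin) had 13.89, 13.59 and 13.36 in Runx3-/- and 13.65, 13.52 and 13.71 in WT, a change of -0.01 (interval -0.51 to 0.49). Canx (calnexin) had 12.67, 12.62 and 12.15 against 12.49, 12.75 and 12.24, a change of -0.02 (interval -0.57 to 0.54). For both lectins the interval was inside 1.5-fold either way. Uggt1, the glucosyltransferase that returns misfolded glycoproteins to the cycle, had 10.50, 10.54 and 10.28 against 10.69, 10.95 and 10.74. All Runx3-/- arrays were below all WT arrays, with a change of -0.35 (limma adjusted p = 0.408) that its second expressed probe set gave as well (-0.35).

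Disulfide formation held the single member at the thresholds. Ero1a is the oxidase that reoxidises protein disulfide isomerase, and it had 10.25, 9.94 and 9.72 on the Runx3-/- arrays and 9.58, 8.97 and 9.28 on the WT arrays. The groups did not overlap, although the lowest Runx3-/- array and the highest WT array were close. The signal was 1.62-fold higher in Runx3-/- (log2 change 0.70, SE 0.25, interval 0.12 to 1.27, unadjusted p = 0.0232, limma adjusted p = 0.237). Its 3 probe sets all gave a higher mean in Runx3-/-, with changes from 0.46 to 0.72. The call was lost when Runx3-/- replicate 1, Runx3-/- replicate 2, WT replicate 2 or WT replicate 3 was left out, with changes from 0.54 to 0.71, and when the probe sets of the gene were averaged (change 0.63).

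The isomerases themselves did not share that pattern. P4hb, the protein disulfide isomerase, had the smallest spread within groups of all members (SD 0.058), with 13.16, 13.23 and 13.23 against 13.22, 13.35 and 13.34. Its change was -0.10 (interval -0.52 to 0.32). Pdia3, which works with the lectins, and Pdia4 had changes of 0.17 and 0.15, and Pdia4 had the largest spread of all members (SD 0.70), with 6.65, 8.45 and 7.34 against 6.86, 7.53 and 7.60. Pdia6 had a change of -0.44 (interval -0.996 to 0.117) with overlapping groups. Creld2, a UPR-induced ER protein, had 10.86, 10.87 and 11.16 against 11.38, 11.28 and 11.40, lower on all Runx3-/- arrays by a mean of 0.39 on the log2 scale and with an adjusted p of 0.356 in limma.

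None of the 3 sensors met the thresholds. Ern1, which encodes the kinase and nuclease IRE1 that splices Xbp1 messenger RNA, had 11.47, 11.72 and 11.35 in Runx3-/- and 11.80, 11.99 and 12.12 in WT. The arrays did not overlap, and the change was -0.46 (interval -0.93 to 0.02, limma adjusted p = 0.325). Its probe sets were not of one direction: a second set at background level or above on all arrays gave -0.16, and another, under that level on WT replicate 2, gave 0.92. Eif2ak3, which encodes PERK, the kinase of the translation factor eIF2, had a change of 0.05 (interval -0.44 to 0.53), and Atf6 one of -0.17.

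The transcription factors and feedback regulators of the response were close to the array median. Xbp1 had 12.16, 12.34 and 11.89 against 11.95, 12.18 and 12.34, a change of -0.03 (interval -0.53 to 0.48), while 2 other probe sets gave -0.33 and -0.32. The array does not separate spliced from unspliced Xbp1. Atf4 had a change of -0.11, while a second probe set of similar brightness gave 0.15. Ddit3, the pro-apoptotic factor CHOP that PERK signalling switches on, had a change of -0.19, with 8.61, 7.94 and 8.38 against 8.82, 8.08 and 8.60. Ppp1r15a and Ppp1r15b encode the inducible and the constitutive subunit that direct a phosphatase to eIF2, and their changes were -0.17 and -0.19. By the brightest probe set, all 5 tested genes of this role were below 0 and overlapped between the groups, with a median of -0.17. With each array centred, 3 of the 5 stayed below 0.

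ER-associated degradation removes proteins that fail to fold. By the brightest probe set, all 6 members of this role had a lower mean in Runx3-/-, with a median of -0.21. Another probe set at log2 5 or more on all arrays gave a higher mean for Edem1 (0.23), Syvn1 (0.10) and Sel1l (0.08), and for Derl2 as given below. All such sets of Derl1 and Herpud1 were lower. When each array was centred on its median, or quantiles were equalised, 5 of the 6 were below 0, Syvn1 being the other. Over all members 75.8% and over all tested genes 62.2% were below 0, and with each array centred 16 of the 33 members were. Derl2, a derlin of the export complex, had 10.61, 10.98 and 11.17 in Runx3-/- and 11.21, 11.62 and 11.59 in WT. The highest Runx3-/- array lay just under the lowest WT array. The change was -0.55 (interval -1.10 to -0.01, unadjusted p = 0.0473, limma adjusted p = 0.308), short of 1.5-fold, and the second probe set of Derl2 gave 0.03. Derl1 had a change of -0.29, Herpud1, a UPR-induced organiser of the complex, one of -0.24, Edem1, a lectin that picks out misfolded glycoproteins, one of -0.17, and Sel1l, the adaptor of the ubiquitin ligase, one of -0.17. Syvn1, the ligase HRD1 itself, had -0.04 (interval -0.47 to 0.39).

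Of the translocation genes, Sec61b, a subunit of the channel, had a change of -0.03 (interval -0.49 to 0.44), and Ssr1, a subunit of the translocon-associated complex, one of -0.13.

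**Figure D2:**
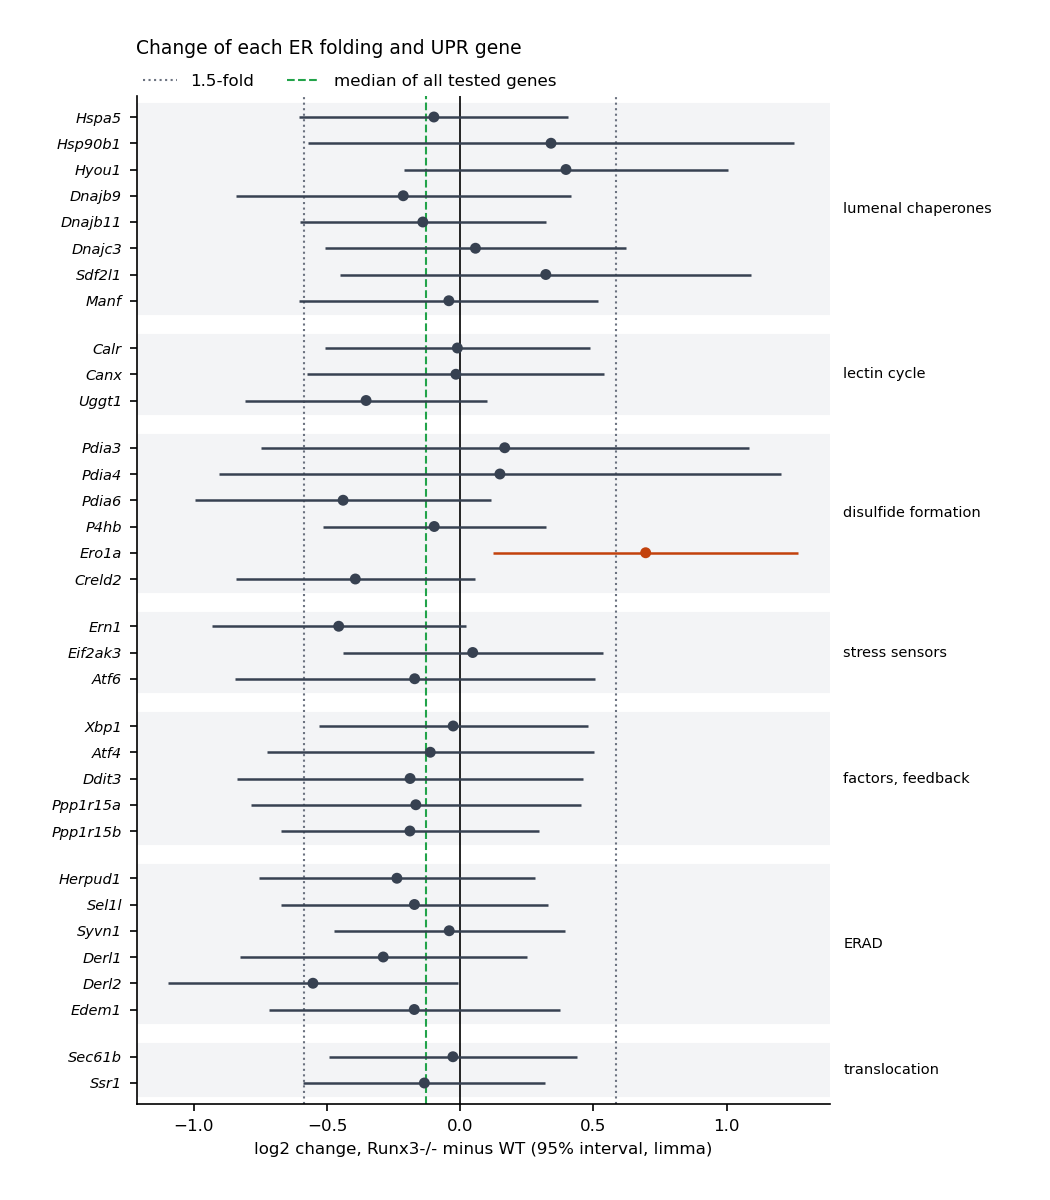
Log2 change of each tested ER gene, Runx3-/- minus WT (x axis), with its 95% interval from limma; dotted lines mark 1.5-fold and the dashed line the median of all tested genes (-0.13). Ero1a (coloured) met the thresholds, Derl2 had an interval that just missed 0, and the other 31 intervals included 0.

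The choice of probe set changed the sign of some members. Of the 84 probe sets, 64 were at log2 5 or more on all arrays, 5 on some and 15 on none. For 20 genes 2 or more sets were at that level on all arrays. In 9 of them the sets had changes of opposite sign, and in 0 of the 20 did they differ by 1.5-fold or more, Derl2 coming closest. Of the 69 probe sets tested one by one, 1 met the thresholds, that of Ero1a.

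The mean of the 33 tested genes did not separate the arrays by genotype. It was 10.83, 10.96 and 10.75 on the log2 scale in Runx3-/- and 10.91, 10.86 and 11.00 in WT, a difference of -0.08, beside -0.08 for the mean over all tested genes. Runx3-/- replicate 2 lay above WT replicates 1 and 2. Across members the arrays were not interchangeable: WT replicate 3 was the highest array for 11 members, Runx3-/- replicate 3 for 0, and the lowest array was Runx3-/- replicate 1 for 11 and Runx3-/- replicate 3 for 9. The spread between arrays of a group had a median SD of 0.26 over the members and 0.32 over all tested genes.

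Cytosolic chaperones were compared because they fold the proteins of the other compartment. Of 50 listed, 47 had a probe set and 43 were tested. At the thresholds 15 were lower in Runx3-/- and 0 higher (34.9% and none, beside the 8.86% and 4.89% over all genes), 4 were lower after BH adjustment in limma, and the median change was -0.44. With each array centred the median was -0.32, and leaving out any 1 array left from 0 to 2 after BH adjustment. The fall of heat shock genes in these data was known when the list was written, so these counts are no independent evidence of its direction. The mean per array was 10.33, 10.41 and 10.23 in Runx3-/- and 11.17, 10.86 and 11.02 in WT. Every Runx3-/- array was thus below every WT array, unlike the mean of the tested ER members. This separation was not particular to the cytosol. Means of other ER folding enzymes, listed further below, were 9.65 to 9.73 in Runx3-/- and 9.99 to 10.15 in WT. Those of mitochondrial chaperones were 9.395 to 9.54 and 9.78 to 9.92. The translocon list was only just apart, and the N-glycosylation, other degradation, other stress sensing and ATF4 target lists overlapped.

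**Figure D3:**
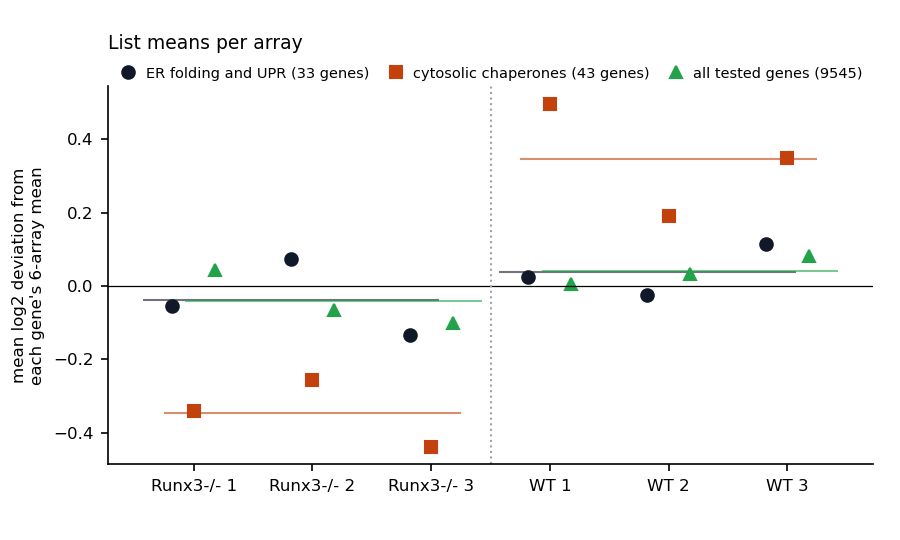
Mean log2 deviation from each gene's own mean over the 6 arrays (y axis) for each array (x axis), over the ER genes, the cytosolic chaperones and all tested genes; lines are group means. Cytosolic chaperones lay at -0.44 to -0.26 in Runx3-/- and 0.19 to 0.50 in WT, while ER genes lay at -0.13 to 0.07 and -0.02 to 0.12.

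The genes with the smallest p among the cytosolic chaperones were Hsph1, Dnajb2, Hspa1b, Ahsa2, Hspa1a and Stip1. Hsph1, the cytosolic Hsp110, had 10.83, 10.84 and 10.58 in Runx3-/- and 13.17, 12.99 and 13.23 in WT, 5.21-fold lower (limma adjusted p = 0.0213). Hspa1b, an inducible Hsp70, had 5.65, 7.72 and 6.60 against 11.11, 10.08 and 12.30, 22.7-fold lower (adjusted p = 0.0404 in limma). Hspa1a is a near-identical copy of it, and signal of the pair cannot be assigned with certainty to either gene; Hspa1a was under log2 5 on all Runx3-/- arrays and at least 3.24-fold lower. Dnajb2, a J-protein, Ahsa2, an Hsp90 activator, and Stip1, which links Hsp70 to Hsp90, were lower by 3.20-fold, 2.50-fold and 2.68-fold, and none of these groups overlapped.

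A heat shock element was searched as GAA, TTC and GAA with 2 bases between each, or its reverse complement. It was in 0 of the 29 ER windows, in 3 of 40 cytosolic chaperone windows (Hsph1, Chordc1 and Dnajb6) and in 0.603% of all windows. At the study's thresholds 4 of the 45 tested genes with the element were lower and 1 was higher, beside 8.86% and 4.89% of all tested genes. Of the 3 chaperones with the element, Dnajb6 did not meet the thresholds, with a change of -0.06 (interval -0.51 to 0.40). Of the cytosolic genes with the smallest p named above, only Hsph1 was among the 3. The sites of Hsph1 and Chordc1, which met the thresholds, are shown with the element in capitals. That of Hsph1 lay 37 to 49 bases after one annotated start and 16 to 28 bases after the other. Chordc1 held 3 overlapping copies, all in capitals, which together spanned the start.
Hsph1, chr5:149636287-149636308, minus strand: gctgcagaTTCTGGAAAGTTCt
Chordc1, chr9:18292260-18292288, plus strand: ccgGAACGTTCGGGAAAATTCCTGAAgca

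In the pairs picked by family, each ER chaperone had a higher change than the cytosolic gene set beside it. This did not hold for every cytosolic relative. The change of Hspa5 was -0.10, that of the constitutive cytosolic Hsp70 gene Hspa8 was -0.43 and that of Hspa1b was -4.51. Hyou1 had 0.40 and Hsph1, its cytosolic relative, -2.38, a difference of -2.78 on the log2 scale. Among J-proteins Dnajb11 had -0.14 and Dnajb1 -0.99. The 11 cytosolic J-proteins tested had a median of only -0.06, with 7 below 0 (4 of them at the thresholds) and 4 above. Dnajc2 and Dnajc7 had 0.19 each, above Dnajb11. The 8 cytosolic Hsp70 and Hsp110 genes were all below 0, up to -0.11 for Hspa4, close to Hspa5. For the Hsp90 genes Hsp90b1 had 0.34 and Hsp90aa1 -0.19, with overlapping arrays for each gene. Probe sets disagreed for Hspa8 (-0.52 to 0.35) and for Hsp90aa1 (-0.91 to -0.19). The pairs were chosen with the values known and their differences are given without a test.

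**Figure D4:**
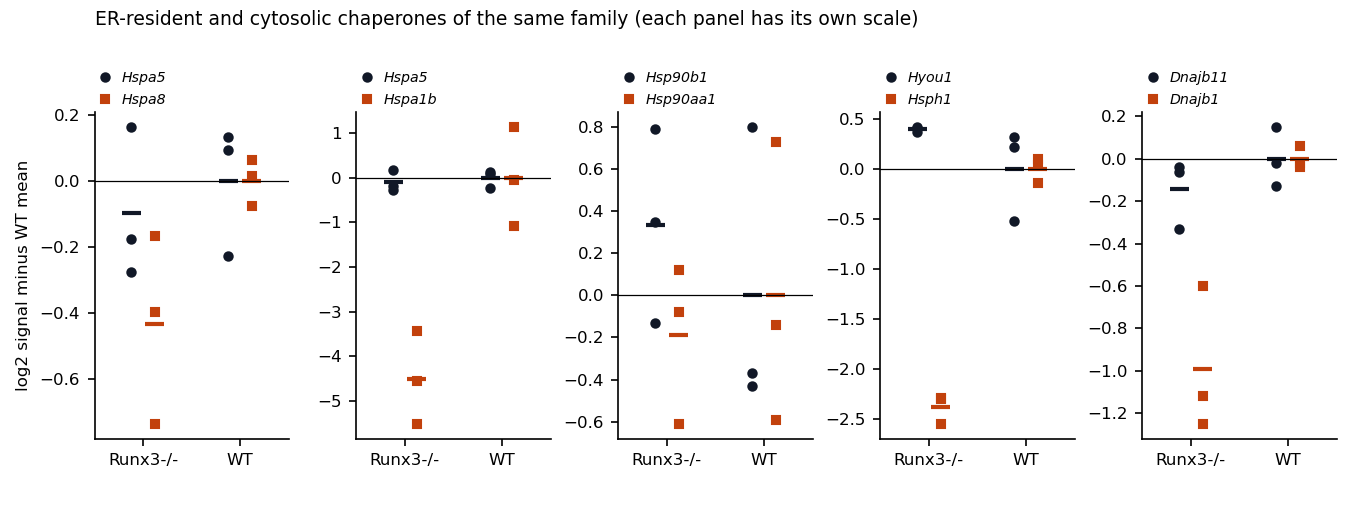
Log2 signal minus the gene's WT mean (y axis, own scale per panel) on each array for ER chaperones (circles) and cytosolic relatives (squares); bars are group means, n = 3. Hyou1 and Hsph1 lay apart in Runx3-/-, with changes of 0.40 and -2.38, while Hsp90b1 and Hsp90aa1 each overlapped between groups.

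The rest of the pathway held 153 further genes in 7 lists, of which 133 were tested. At the thresholds 5 were higher (3.76%) and 11 lower (8.27%), near the 4.89% and 8.86% of all tested genes. None passed BH adjustment in limma. An unadjusted p under 0.05 was found for 21, and for 16.0% of all tested genes. Other ER folding enzymes had 4 of 24 lower (16.7%) and a median of -0.27. Fkbp9, a lumenal prolyl isomerase, was at least 3.15-fold lower, with 5.18, 4.06 and 4.06 in Runx3-/- and 5.69, 6.98 and 7.47 in WT. Ppic, another prolyl isomerase, was at least 1.43-fold lower with overlapping groups and was above log2 5 on 2 WT arrays only, Sil1, a nucleotide exchange factor of BiP, 1.84-fold lower and Txndc11, a thioredoxin-domain protein, 1.70-fold lower. Sil1 and Hyou1 thus had changes of opposite sign (-0.88 and 0.40).

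The translocon, signal peptidase and signal recognition genes had 1 of 20 lower (5%), Srprb, a subunit of the signal recognition particle receptor, by 1.57-fold. None of 19 N-glycosylation genes and none of 21 other ER-associated degradation genes met the thresholds, with medians of -0.25 and -0.13. Among 16 other stress sensing genes, Traf2, an adaptor that IRE1 recruits, was 1.77-fold lower and Eif2b5, a subunit of the exchange factor of eIF2, 1.62-fold lower, while Map3k5, the kinase ASK1, was 1.62-fold higher. Mitochondrial chaperones had 3 of 11 lower (27.3%), Hspd1 (Hsp60) by 1.65-fold, Dnaja3 by 1.74-fold and Grpel1 by 1.60-fold. Their median was -0.45, close to that of the cytosolic list.

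ATF4 targets, which answer to amino acid shortage as well as to PERK, were mixed. Of 22, 4 were higher, beside 4.89% of all genes, and 1 was lower. Vldlr, a lipoprotein receptor, was at least 3.19-fold higher, Slc7a5, an amino acid transporter, 4.08-fold with overlapping groups (8.91, 8.37 and 6.97 against 5.03, 7.22 and 5.92), Mthfd2, a mitochondrial folate enzyme, 2.06-fold and Cebpb, a transcription factor, 1.81-fold. Nars, an aminoacyl-tRNA synthetase, was 1.53-fold lower. The median of the list was -0.17, and Atf4, Ddit3 and Trib3 stood as given above.

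**Figure D5:**
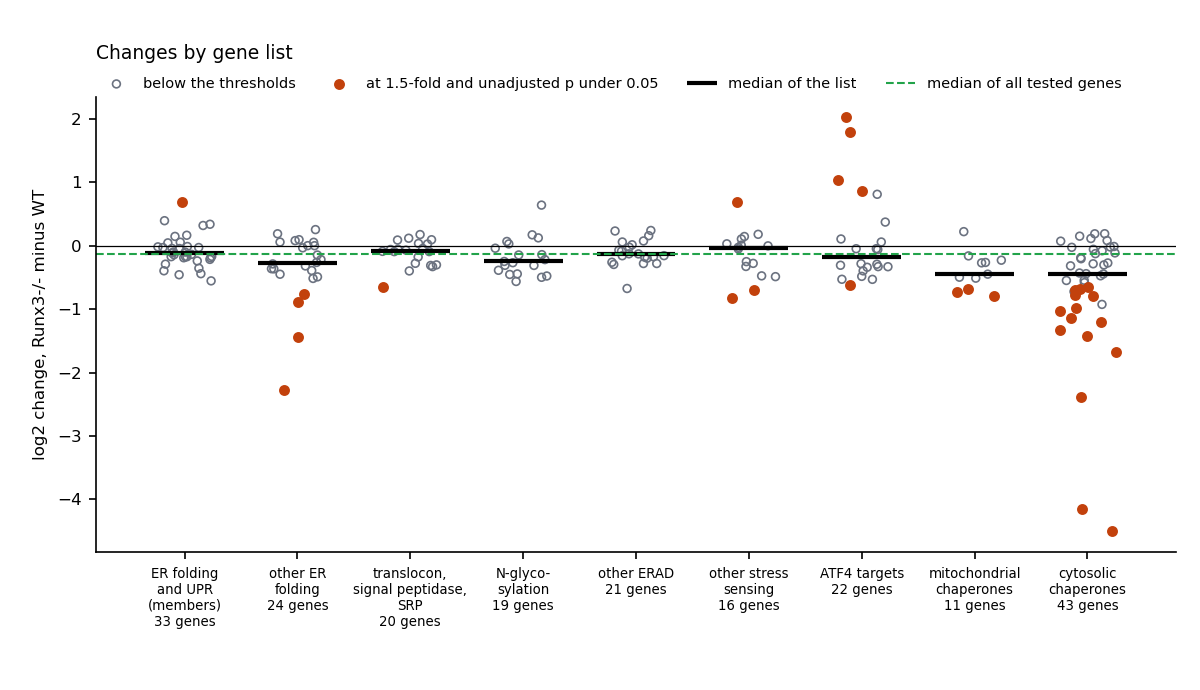
Log2 change, Runx3-/- minus WT (y axis), of every tested gene in each list (x axis); filled points met the study's thresholds, bars are list medians and the dashed line is the median of all tested genes (-0.13). The ER members cluster around that line with 1 filled point, while 15 filled points of the cytosolic chaperones lie below it.

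Some markers of other cells moved with genotype in the same arrays. The counts below stand beside 4.89% higher and 8.86% lower at the thresholds over all tested genes, and 0.608% after BH adjustment. Of the basophil and mast cell markers, 9 of 11 were higher in Runx3-/-, 3 of them after BH adjustment in limma, with a mean log2 signal of 9.74 to 10.87 against 8.30 to 8.75; Il6, Hdc and Cyp11a1 led, and Hdc, the histamine-forming enzyme, was 3.97-fold higher. Of the B cell markers 4 of 8 were higher (Ly86, Cd79a and Cd22 led), with means of 6.91 to 8.01 against 5.70 to 6.71. Cd79a was under log2 5 on all WT arrays and so was tested through the Runx3-/- arrays alone, at least 1.74-fold higher. Plasma cells have a large ER, and of 9 tested genes listed as their markers 2 were higher, Fcrla and Mzb1. Fcrla was not in the planned list of plasma cell markers, and Mzb1 is an ER protein of antibody-secreting cells. The other listed genes did not meet the thresholds, with changes from -0.15 (Irf4) to 1.845 (Igha). List means were 8.58 to 9.36 against 7.96 to 8.87, and Sdc1 and Tnfrsf17 were under log2 5 on all arrays. Macrophage markers had 2 of 11 higher, Adgre1 and Cd14, and ran from 4.79 to 9.36 between Runx3-/- arrays against 6.44 to 6.50 in WT, being highest on Runx3-/- replicate 1. Cd14 was above log2 5 on that array alone (5.64). Of 3 pancreatic markers tested Prss2 and Cela1 were higher and Cela3b, under log2 5 on all Runx3-/- arrays, lower. None of 6 T cell markers met the thresholds, Cd3e lying between 5.12 and 6.85, and 1 of 7 neutrophil markers was lower, Camp, with list means of 4.58 to 7.44 against 4.21 to 8.39. Camp was above log2 5 on 2 arrays, both WT (5.88 and 7.56), and was 2.45 on WT replicate 3, as low as in Runx3-/-. Of the NK markers 1 of 10, Eomes, was lower, 1.63-fold. The part of these cells in the ER values was not tested. Runx3-/- replicate 1 had the highest macrophage, B cell and basophil marker means. Without this array, 0 of the 33 ER genes were higher and 0 lower with a median of -0.11, and 14 of 43 cytosolic chaperones were lower. The call of Ero1a was also lost without Runx3-/- replicate 2, WT replicate 2 or WT replicate 3. Basophil and mast cell marker means on Runx3-/- replicates 2 and 3 were 9.83 and 9.74, above every WT array.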

How the data were processed

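Per the labels, total RNA of sorted DX5+ splenic NK cells was hybridised to Affymetrix mouse arrays, 3 Runx3-/- and 3 WT. The authors processed the arrays by GC-RMA in Partek and deposited log2 values of 45101 probe sets. The submitters' processing notes give no version of either tool. GC-RMA equalises arrays at the level of single oligonucleotides, so a change in total RNA per cell cannot be seen, although the probe set values still differed between arrays (37.9% to 39.4% at log2 5 or more), and it pulls dim probe sets to a common low value. No source used here gives the background level of the study or its exact test, and log2 5 and limma stand in for them.

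Probe sets were named from the platform annotation (34945 with 1 symbol, 932 with several, which were not used). The brightest probe set by mean over the 6 arrays represented a gene, and 9545 genes at log2 5 or more on at least 1 array were fitted in limma 3.58.1 (R 4.3.3; lmFit and eBayes, no covariate) with Benjamini-Hochberg adjustment over all of them. Changes are mean log2 Runx3-/- minus WT. A fold is given as "at least" where an array of the lower group was under log2 5, with values under 5 raised to 5. Lists are described by counts and medians, with no test over a list. The fit was also run on simulated arrays with independent noise per gene. These lack the shifts that many genes share on the real arrays, so that run says nothing about them. Summaries and plots used Python 3.11.15, pandas 2.3.3, numpy 2.4.6 and matplotlib 3.10.9. No 2 arrays were copies, with at most 0.0111% of values identical. Precision is limited by having 3 arrays a group.

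Every member is named. Of other pathway lists the genes at the study's thresholds are named, at most 6 with the smallest p, and of marker lists at most 3 and the genes that define a cell type; Klrb1c was not analysed here. Promoters are those of the brightest members with an ER stress element, at most 4. The members and all lists were chosen with earlier results of these data known, and the chaperone pairs and the heat shock element sites shown were picked after values were seen. The alternatives changed the probe set choice, the filter, the scaling of arrays, the floor, limma's options and the array weights, added the replicate number as a block, or left out an array.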

Additional observations from a re-analysis of the deposited data

How the results depend on the processing

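Under the 16 of 17 alternatives that give 1 value per gene (all but every probe set as its own row), 513 of 527 single values of members kept direction or moved by less than the spread between replicates, 9 moved by more, and in 5 Ero1a lost its call. With each array centred on its median the members' median was 0.0093, and 498 genes were lower at the thresholds. Averaging a gene's probe sets left 0 members higher. Leaving out 1 array gave 0 to 2 members higher (2 without WT replicate 1, Ero1a and Hsp90b1) and 0 to 1 lower (Derl2, without Runx3-/- replicate 3 or WT replicate 1), and between 552 and 1214 genes lower, the fewest without WT replicate 3. Genes higher and lower after BH adjustment were 85 and 118 with array weights, 6 and 8 with every probe set, 7 and 5 with the mean of probe sets, 0 and 1 with no filter, 17 and 20 with values under 5 raised to 5, and from 0 to 56 and from 0 to 74 without 1 array (0 without any single array other than WT replicate 1). Every probe set as its own row gave 858 higher at the thresholds, with 28 cytosolic sets lower and 10 sets of the other lists higher. Cytosolic chaperones lower after BH adjustment were 1 with every probe set or no filter, 0 with the mean of probe sets and from 0 to 2 without 1 array, while under the same 16 alternatives 228 of 239 values of the 15 called genes kept their call, 11 lost it and 0 reversed. The other lists had 3 genes higher with no filter, 7 lower under median centring, and from 3 to 5 higher and from 6 to 14 lower without 1 array, the fewest higher without Runx3-/- replicate 1 and the fewest lower without Runx3-/- replicate 2. The numbers in the titles do not pair the arrays (correlation of deviations 0.07, -0.19 and 0.15 for the same number), and with the number as a replicate block 0 genes were higher, 0 lower and 0 cytosolic chaperones lower after BH adjustment, with 517 higher and 824 lower at the thresholds. The cause of these shifts was not tested, beyond the fewer arrays and other rows that the settings imply.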
